A study of Mus musculus with 5 samples.

Results

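The genes described here are 10 markers of fibroblasts, pericytes and mesenchymal tumor cells: Acta2, Tagln, Thy1, Lrrc15, Pdgfra, Pdgfrb, Fap, Cspg4, Twist1 and Twist2. They were found by symbol among the 24982 rows of the authors' deposited Cuffdiff gene table, and 10 of 10 had 1 row each. Pdgfra shares its row with the small RNA Mir7025, which lies within it. RNA-seq was done on macrophages taken from mouse tumors of 9609, an MCA fibrosarcoma (a connective tissue tumor; MCA usually stands for the carcinogen methylcholanthrene). The MEK1-low group has 2 libraries, with the tumor line and genotype both labelled MEK1-low and a treatment with MEK1-low (GFP) exosomes, small vesicles shed by cells. The MEK1-hi group has 3 libraries, with line and genotype labelled MEK1-hi and a treatment with MEK1-hi exosomes. Both groups share the 9609 tumor and the cell type label. The mouse strain and age, the number of animals, the way the macrophages were isolated and whether each line is a single clone are not stated by the labels. The series is titled for rejecting and growing tumors, and the labels do not assign these words to the groups. The question addressed is whether these stromal and tumor transcripts, measured in macrophage RNA, differed between the groups, and every direction is MEK1-hi relative to MEK1-low.

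Fibroblasts build and remodel connective tissue, and in tumors an activated form, the cancer-associated fibroblast, contracts, deposits matrix and shapes the behaviour of immune cells. Pericytes wrap small blood vessels and are recruited by platelet-derived growth factor (PDGF) signalling. A fibrosarcoma is itself of mesenchymal origin, so its malignant cells can carry many of the same transcripts as the normal stroma, and these markers do not separate the sources. Macrophages are not known for making most of them.

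Most, but not all, of the 10 markers were lower in MEK1-hi by value. In the authors' deposited table, 4 of 10 were called lower in MEK1-hi by Cuffdiff at a q (adjusted p) of 0.05, and 0 were called higher. Over all 12311 tested rows of the authors' deposited table, 0.325% were called lower and 0.999% higher by the same rule. The members called lower were the pericyte proteoglycan gene Cspg4, the activated fibroblast gene Lrrc15, the contractile actin gene Acta2 and the surface glycoprotein gene Thy1. At an unadjusted p under 0.05, Pdgfrb and Fap joined them, which made 6 of 10 lower and 0 higher in the authors' deposited table, where 2.58% of all tested rows were lower and 3.50% higher on that rule. The log2 fold change, computed from the authors' FPKM, was below 0 for 8 members and above 0 for Twist1 and Twist2. Its median over the members was -0.94, against -0.02 over the 12306 tested rows above 0 in both groups. Of those rows, 53.8% had a log2 fold change below 0. In bulk RNA, fewer cells of a type and less RNA per cell cannot be told apart.

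FPKM is a fragment count divided by transcript length and library size, so levels of different genes can be set side by side. Where 2 FPKM values are set side by side below, the first is MEK1-low and the second MEK1-hi. The table has 1 pooled FPKM per group and no value per library, so no SD can be given and overlap between libraries cannot be seen. The only measure of error is the test statistic of Cuffdiff with its p and q. The labels do not say that libraries came from separate animals, so those p values measure the spread between these samples only, which may be technical. The labels plan for 25 M reads per sample, and the table gives no depth.

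Promoter sequences are shown for the called members that have an entry in the RefSeq promoter table (build GRCm38.p6), and for Twist1 as a member that was not lower. Each runs from 250 bases before to 50 after the annotated gene start, 5′ to 3′ on the gene's strand. The windows are chr19:34255324-34255623 (minus strand) for Acta2, chr16:30283205-30283504 (minus) for Lrrc15, chr9:56864854-56865153 (plus) for Cspg4 and chr12:33957421-33957720 (plus) for Twist1. Capitals mark matches on either strand to 4 motifs: the TATA-like TATANAA, the MCAT element CATTCC, the E-box CANNTG and the CArG box, here allowing at most 1 departure from its core.
Acta2: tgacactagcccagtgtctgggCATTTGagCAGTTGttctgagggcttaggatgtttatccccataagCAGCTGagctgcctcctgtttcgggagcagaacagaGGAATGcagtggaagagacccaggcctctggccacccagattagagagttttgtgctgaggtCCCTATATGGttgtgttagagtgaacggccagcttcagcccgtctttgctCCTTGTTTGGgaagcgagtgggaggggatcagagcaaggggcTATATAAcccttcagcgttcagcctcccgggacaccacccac
Lrrc15: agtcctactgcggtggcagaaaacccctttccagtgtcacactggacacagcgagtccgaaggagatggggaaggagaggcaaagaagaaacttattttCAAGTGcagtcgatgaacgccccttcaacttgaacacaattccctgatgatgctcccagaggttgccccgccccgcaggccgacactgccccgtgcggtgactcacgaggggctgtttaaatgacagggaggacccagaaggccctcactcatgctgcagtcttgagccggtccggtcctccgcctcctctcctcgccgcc
Cspg4: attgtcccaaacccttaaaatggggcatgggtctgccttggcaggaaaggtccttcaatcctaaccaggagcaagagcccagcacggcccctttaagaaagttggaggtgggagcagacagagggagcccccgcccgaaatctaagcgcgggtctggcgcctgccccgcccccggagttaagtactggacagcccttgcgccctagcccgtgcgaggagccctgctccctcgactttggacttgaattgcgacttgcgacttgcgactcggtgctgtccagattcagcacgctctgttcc
Twist1: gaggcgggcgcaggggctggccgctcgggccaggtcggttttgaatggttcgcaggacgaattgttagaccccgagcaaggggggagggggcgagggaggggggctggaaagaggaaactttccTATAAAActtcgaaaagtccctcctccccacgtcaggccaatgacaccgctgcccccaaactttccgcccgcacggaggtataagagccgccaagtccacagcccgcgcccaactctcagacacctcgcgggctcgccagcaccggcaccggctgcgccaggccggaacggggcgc

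The CArG box, whose core is rich in adenine and thymine, is the motif of serum response factor, which drives contractile genes in smooth muscle and myofibroblasts. MCAT is the motif of TEAD factors, and the E-box is the motif of basic helix-loop-helix factors such as TWIST1. The Acta2 window held 2 CArG boxes with 1 departure each, CCCTATATGG at -84 to -75 and CCTTGTTTGG at -34 to -25, counted from the gene start. It also held 1 MCAT element at -146 to -141, 3 E-boxes and a TATANAA match at 9 to 15. The GENCODE M21 annotation begins Acta2 at another base of this window, 34255590, so these positions hold for the RefSeq start only. Of 32851 promoter windows in the table, 9.98% held at least 1 CArG box of this kind and 0.822% at least 2. An MCAT element was found in 14.7% of windows, an E-box in 72.3% and TATANAA in 11.3%. The Lrrc15 window held 1 E-box, the Cspg4 window no match, and the Twist1 window 1 TATANAA match. Of the members not printed, the Pdgfra window held 2 E-boxes and the Twist2 window no match. Windows were read for 6 of the 10 members. No entry was matched for Tagln, Thy1 and Fap. For the members, entries on chromosome 18, where Pdgfrb lies, were left out, so Pdgfrb was not read. No match overlapped another in these windows. A match describes the letters only and was not tested for binding.

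**Figure D1:**
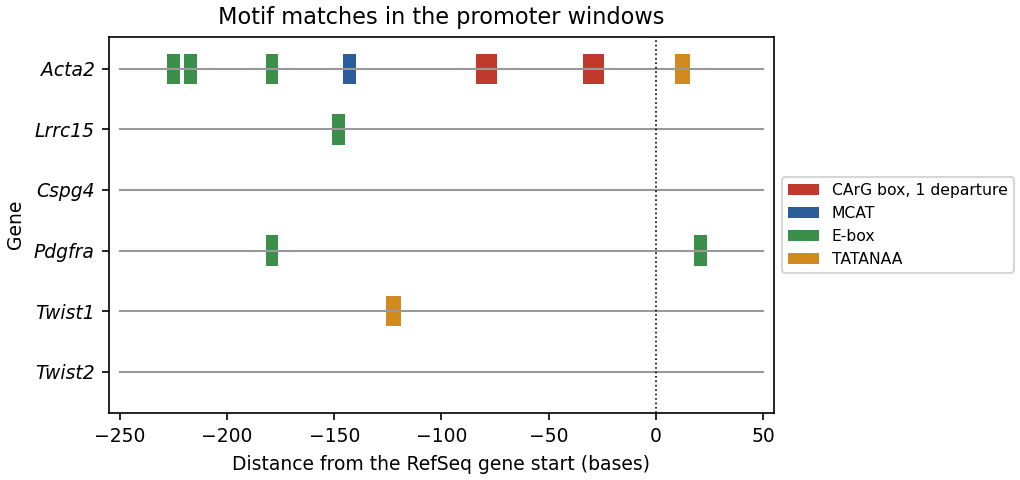
Motif matches in the promoter windows of the 6 markers whose RefSeq entry was read. The horizontal axis is the distance in bases from the annotated gene start (dotted line), each row is a gene and each colored block a match on either strand. Both CArG-like blocks lie in Acta2, at -84 to -75 and -34 to -25, and Cspg4 and Twist2 have no block.

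Among the contractile markers, Acta2 encodes smooth muscle alpha-actin, the actin of smooth muscle, pericytes and myofibroblasts. The authors' deposited table gives Acta2 (mm10 chromosome 19, 34240336 to 34255373) at 23.4 FPKM for MEK1-low against 9.36 for MEK1-hi. It fell 2.50-fold, with a log2 fold change of -1.32, a statistic of -3.10 and q = 0.00676 by Cuffdiff in the authors' deposited table. Its level moved from the second rank of the 10 markers in MEK1-low to the fourth in MEK1-hi. Actin genes resemble one another, yet 0 of 1936 windows of 100 bases in the longest coding Acta2 transcript occurred in a transcript of another gene (GENCODE M21). At 50 bases, 7 of 1986 windows (0.352%) were shared, with Actg1, Actg-ps1 and predicted genes. The other 9 members likewise had 0 windows of 100 bases in common with another gene.

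The other actin genes were not called. Actb, the cytoplasmic beta-actin gene, had 1865 against 1931 FPKM in the authors' deposited table (q = 0.9998 by Cuffdiff). Actg1, the cytoplasmic gamma-actin gene, had 171 against 133 FPKM in the authors' deposited table (q = 0.9998 by Cuffdiff). The muscle actin genes Acta1 (0.383 and 0.155 FPKM) and Actg2 (0.273, then listed at 0) were not tested by Cuffdiff in the authors' deposited table, and Actc1 was listed at 0 in both groups. The ratio of Actb to Acta2 FPKM was 79.6 for MEK1-low against 206 for MEK1-hi. The difference between these fold changes was not tested, since it needs values per library.

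Tagln encodes transgelin (SM22-alpha), an actin-binding protein of the same contractile cells. Tagln had 7.52 FPKM for MEK1-low against 3.34 for MEK1-hi in the authors' deposited table, a log2 fold change of -1.17, and was not called (statistic -0.83, p = 0.189, q = 0.9998 by Cuffdiff). The ratio of Acta2 to Tagln FPKM was 3.12 for MEK1-low against 2.80 for MEK1-hi. Its statistic was small for the size of its difference. The row's locus (mm10 chromosome 9, 45863422 to 45936058) is shared with 2 other rows, Pcsk7 and Rnf214, while GENCODE M21 places Tagln itself within 6440 bases, 45929619 to 45936058. On the opposite strand, 108 bases of Tagln overlap Pcsk7 and 3627 bases overlap the antisense gene Gm48529. Pcsk7 had 11.7 against 11.5 FPKM, and Rnf214 8.41 against 6.69, in the authors' deposited table. Tested rows with a log2 fold change of 1 to 1.4 in either direction and a mean of 3 to 20 FPKM were compared as a description. The 56 such rows alone at their locus had a median absolute statistic of 2.03 (1.09 to 3.42), and 0 were as low as that of Tagln. The 14 rows on a shared locus had a median of 1.68 (0.58 to 3.00), and 3, Tagln included, were at or under it. Whether the shared locus had a part in the statistic of Tagln was not tested.

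Paralogs of transgelin and calponin were not called. Tagln2, the form found widely outside muscle, had 346 against 314 FPKM in the authors' deposited table, Cnn2 had 70.4 and 62.2, and Cnn3 67.5 and 72.3 (q = 0.9998 for each by Cuffdiff). The smooth muscle gene Cnn1 (0.248 and 0.0738 FPKM) and the neuronal Tagln3 (0.0242 and 0.0142) were not tested by Cuffdiff in the authors' deposited table. In a wider list of 26 contractile and cytoskeletal genes, 20 were tested and 0 were called by Cuffdiff, while 5 lower and 0 higher had an unadjusted p under 0.05. Their median log2 fold change was -0.29, with 17 below 0 and 3 above. Its most abundant other members, the tropomyosin genes Tpm4 (253 and 230 FPKM) and Tpm1 (247 and 171), were not called in the authors' deposited table (q = 0.9998 and 0.792 by Cuffdiff).

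**Figure D2:**
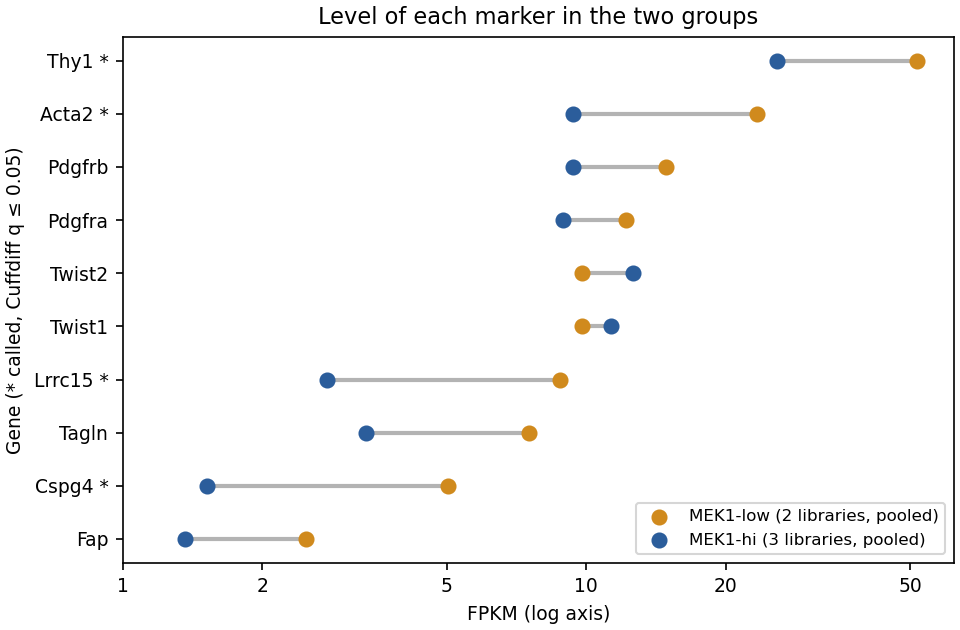
Pooled FPKM of the 10 markers (log axis) in MEK1-low (orange, 2 libraries) and MEK1-hi (blue, 3 libraries), ordered by the MEK1-low level, with a star at those called by Cuffdiff. For 8 markers the blue point lies left of the orange one, and for Twist1 and Twist2 it lies right. The points have no error bar because the table has 1 value per group.

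Among the fibroblast surface markers, Thy1 was the most abundant of the 10 in both groups. It encodes THY1 (CD90), a glycolipid-anchored glycoprotein of fibroblasts and other mesenchymal cells that mouse T cells also carry. Thy1 (chromosome 9, 44043384 to 44048579) had 51.8 against 25.8 FPKM in the authors' deposited table, a 2.00-fold fall (statistic -2.41, q = 0.0163 by Cuffdiff), which does not pass a q of 0.01. Thy1 made up 35.5% of the summed FPKM of the 10 markers in MEK1-low and 29.9% in MEK1-hi. T cell genes were read beside it. Of 17 T cell genes, 15 were tested and 0 called by Cuffdiff, while 1 lower and 1 higher had an unadjusted p under 0.05. Their median log2 fold change was 0.40. In the authors' deposited table, the T cell receptor complex genes Cd3e (0.889 and 1.74 FPKM), Cd3d (0.680 and 1.43) and Cd3g (2.07 and 3.64) were not called and lay far below Thy1. The summed FPKM of the T cell list was 47.0 against 45.3. At an unadjusted p under 0.05, the lower gene was Cd4, which mouse macrophages can also express, and the higher one Cd8a. In the authors' deposited table, Cd4 had 27.8 and 19.3 FPKM (p = 0.0432 by Cuffdiff) and Cd8a 1.15 and 2.88 (p = 0.0047 by Cuffdiff). Of the 15 tested T cell genes, 11 were above 0 in log2 fold change. The part of T cells in the value of Thy1 was not tested.

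Lrrc15 encodes a leucine-rich repeat membrane protein that marks cancer-associated fibroblasts exposed to TGF-beta. Lrrc15 (chromosome 16, 30269302 to 30283254) fell 3.18-fold, with 8.80 against 2.76 FPKM in the authors' deposited table (log2 fold change -1.67, statistic -3.72, q = 0.00676 by Cuffdiff). Among 11350 tested rows with at least 1 FPKM in a group, 0.115% had a smaller log2 fold change. Related leucine-rich repeat genes were not called in the authors' deposited table: Nrros, a partner of latent TGF-beta in myeloid cells, had 118 against 119 FPKM, Lrrc32 had 2.87 and 2.30, and Lrrc17 had 9.62 and 6.70 (q = 0.9998 for each by Cuffdiff).

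Fap encodes fibroblast activation protein, a surface prolyl peptidase of activated fibroblasts, and was the lowest of the 10 markers in both groups. It had 2.49 against 1.36 FPKM in the authors' deposited table (log2 fold change -0.87, p = 0.0385, q = 0.719 by Cuffdiff), and was not called. The ratio of Lrrc15 to Fap FPKM was 3.54 for MEK1-low against 2.03 for MEK1-hi. In the prolyl peptidase family, Dpp4, its closest relative and a marker of T cells and some dendritic cells and fibroblasts, had 2.62 against 4.93 FPKM in the authors' deposited table (p = 0.00325, q = 0.166 by Cuffdiff). The intracellular members Dpp7 (30.4 and 33.2), Dpp8 (25.3 and 22.6), Dpp9 (20.1 and 18.7) and Prep (12.3 and 11.2 FPKM) had q = 0.9998 by Cuffdiff in the authors' deposited table. Dpp6 and Dpp10 were under 0.1 FPKM and were not tested by Cuffdiff.

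The PDGF receptors, which drive growth and migration of mesenchymal cells, had smaller differences by value. Pdgfra (chromosome 5, 75152251 to 75198206), a broad fibroblast marker, had 12.2 against 8.93 FPKM in the authors' deposited table (log2 fold change -0.44, p = 0.0904, q = 0.998 by Cuffdiff). Pdgfrb (chromosome 18, 61045150 to 61085067), the receptor of pericytes and fibroblasts, had 14.9 against 9.35 FPKM in the authors' deposited table (log2 fold change -0.67, p = 0.0128, q = 0.381 by Cuffdiff). Neither was called. Pdgfra overlaps the antisense gene Gm42802 by 599 bases. The ratio of Pdgfrb to Pdgfra FPKM was 1.22 for MEK1-low against 1.05 for MEK1-hi.

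The other class III receptor tyrosine kinases, which mark blood cells, included 1 called higher. Csf1r, the receptor that macrophages need to survive, had 680 against 628 FPKM in the authors' deposited table (q = 0.9998 by Cuffdiff). Kit, the stem cell factor receptor, rose from 4.13 to 10.9 FPKM (q = 0.00676 by Cuffdiff), and Flt3, a receptor of dendritic cells and their precursors, had 2.42 and 5.02 (q = 0.168) in the authors' deposited table. Of 7 PDGF ligands and associated proteins, 6 were tested by Cuffdiff, with 0 called and 0 at an unadjusted p under 0.05. Among the ligand genes of the authors' deposited table, Pdgfa had 24.5 against 19.4 FPKM, Pdgfb 47.0 against 51.5 and Pdgfc 15.9 against 13.1, and Pdgfd was under 0.1 FPKM and not tested. Pdgfrl had 18.3 and 13.7 FPKM, the coreceptor gene Nrp1 48.6 and 53.3, and Plat, whose protease activates PDGF-C, 46.1 and 38.8 in the authors' deposited table.

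The pericyte marker Cspg4 had the largest difference of the 10. It encodes NG2, a chondroitin sulfate proteoglycan on the surface of pericytes, oligodendrocyte precursors and some tumor cells. Cspg4 (chromosome 9, 56865104 to 56899870) fell 3.31-fold, with 5.02 against 1.52 FPKM in the authors' deposited table (log2 fold change -1.73, statistic -3.73, q = 0.00676 by Cuffdiff). Of the 11350 tested rows with at least 1 FPKM in a group, 0.0969% had a smaller log2 fold change. The ratio of Cspg4 to Pdgfrb FPKM, both pericyte genes, was 0.337 against 0.162. Among other chondroitin sulfate proteoglycans, the cartilage gene Acan fell from 3.03 to 0.849 FPKM (q = 0.00676 by Cuffdiff), while Vcan had 19.0 and 11.5 (q = 0.290), Cd44 169 and 156 and Sdc4 143 and 144 (q = 0.9998 for both) in the authors' deposited table.

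Most other pericyte genes were listed at low levels. Of 15, 8 were tested and 0 called by Cuffdiff, while 1 lower and 0 higher had an unadjusted p under 0.05. That one was Rgs5, a defining pericyte gene, with 1.44 against 0.561 FPKM in the authors' deposited table (p = 0.004, q = 0.187 by Cuffdiff). Notch3 had 0.894 and 0.557 FPKM, and Kcnj8 0.130 and 0.0958, untested, in the authors' deposited table. The median log2 fold change of the 8 was -0.70, and it moved to -0.32 with a pseudocount of 1, as these levels are low. The listed sum, 59.8 against 61.6 FPKM, was mostly Anpep (48.5 and 53.7 in the authors' deposited table), which myeloid cells also make. Markers of Schwann cells, melanocytes and oligodendrocyte precursors, which can carry Cspg4, included 4 of 12 listed genes at 0 in both groups. Sox10, a transcription factor that defines these lineages, was listed in the authors' deposited table at 0.00925 FPKM in MEK1-low and 0.00715 FPKM in MEK1-hi macrophages. Of the 12 genes, 2 were tested and 0 called by Cuffdiff. In the authors' deposited table, these 2 were Mbp (5.49 and 6.95 FPKM) and Mitf (7.47 and 8.07), both above Cspg4 by value. The 12 genes summed to 13.9 against 15.6 FPKM. The part of such cells in the value of Cspg4 was not tested.

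Twist1 and Twist2 encode basic helix-loop-helix transcription factors of mesenchymal cells, used in mesoderm development and in the switch of epithelial cells to a mesenchymal state. Twist1 (chromosome 12, 33957671 to 33959831) had 9.79 against 11.3 FPKM in the authors' deposited table (log2 fold change 0.21, p = 0.517, q = 0.9998 by Cuffdiff). Twist2 (chromosome 1, 91801461 to 91848034) had 9.81 against 12.6 FPKM in the authors' deposited table (log2 fold change 0.36, p = 0.293, q = 0.9998 by Cuffdiff). Neither was called, which does not show that the groups were equal. Rescaling both groups to equal FPKM sums lowers every log2 fold change by 0.13 and brings these to 0.08 and 0.22. The genes had almost the same level as each other, with a ratio of Twist2 to Twist1 of 1.00 against 1.11. Twist2 overlaps the antisense gene Gm29100 by 1477 bases, and no label states how strand was set in the counting.

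The order of the markers by value differed between the groups. In MEK1-low the order by FPKM was Thy1, Acta2, Pdgfrb, Pdgfra, Twist2, Twist1, Lrrc15, Tagln, Cspg4 and Fap. In MEK1-hi it was Thy1, Twist2, Twist1, Acta2, Pdgfrb, Pdgfra, Tagln, Lrrc15, Cspg4 and Fap. Set against Pdgfra within each group, Acta2 went from a ratio of 1.93 in MEK1-low to 1.05 in MEK1-hi, Lrrc15 from 0.724 to 0.310 and Thy1 from 4.26 to 2.89. Twist1 went the other way, from 0.805 to 1.27, and Twist2 from 0.807 to 1.41. The log2 fold changes of the 10 spanned 2.08, from -1.73 for Cspg4 to 0.36 for Twist2. Which neighbours in these orders differ beyond their spread cannot be told without values per library. The spread of the fold changes among the markers was not tested either.

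**Figure D3:**
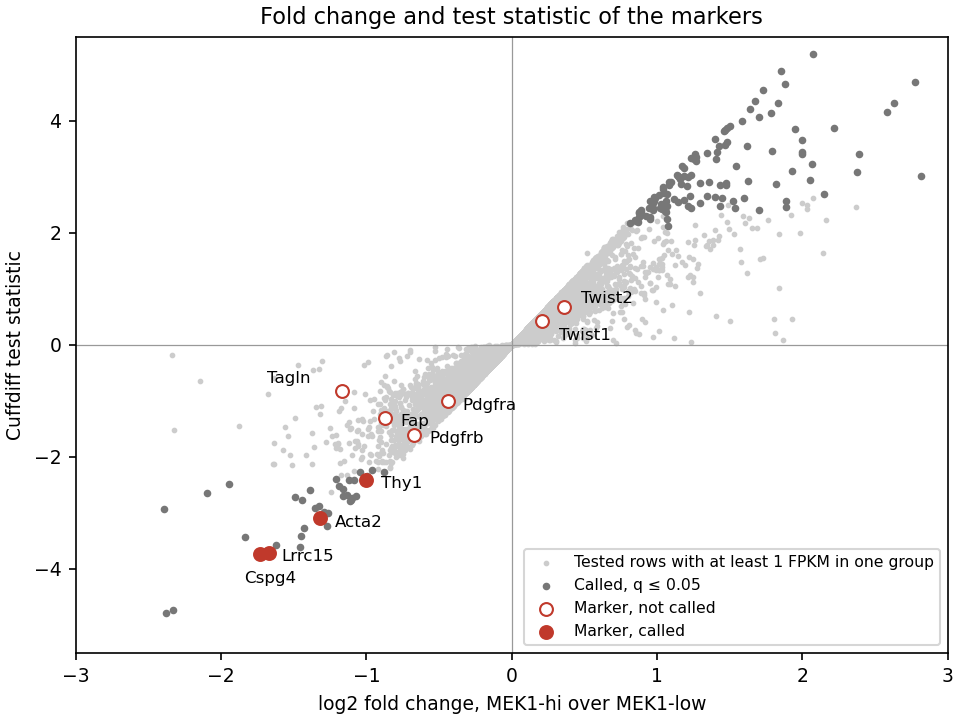
Log2 fold change of MEK1-hi over MEK1-low (horizontal) against the Cuffdiff test statistic (vertical) for 11350 tested rows with at least 1 FPKM in a group, of which 4 lie outside the axes. Darker grey points are called at a q of 0.05, and the 10 markers are red, filled where called. Cspg4 and Lrrc15 lie together at -1.73 and -1.67, and Tagln, at -1.17, has a statistic of only -0.83.

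Summed over the 10 markers, the level was 146 FPKM for MEK1-low against 86.4 for MEK1-hi, a ratio of 1.69. The 10 markers made up 0.0319% and 0.0176% of all FPKM in the table. Without Thy1 the sums were 93.9 and 60.5 FPKM, a ratio of 1.55. The markers stood beside a strong macrophage signal: the 16 macrophage identity genes summed to 18330 against 20991 FPKM. Of those 16, 0 were called by Cuffdiff, while 1 lower and 0 higher had an unadjusted p under 0.05. The lower gene was Mrc1, with 236 against 142 FPKM in the authors' deposited table (log2 fold change -0.73, p = 0.0169, q = 0.460 by Cuffdiff). The median log2 fold change of the 16 was 0.14, or 0.01 with equal FPKM sums. In the authors' deposited table, the defining macrophage genes had 388 and 411 FPKM for Adgre1, 785 and 741 for Cd68 and 3261 and 3758 for C1qa, so the labelled cell type was borne by its markers in both groups. The ratio of Csf1r to Acta2 FPKM was 29.0 for MEK1-low against 67.1 for MEK1-hi, and that of Csf1r to Pdgfra 55.9 and 70.3.

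Other fibroblast and mesenchymal genes were mostly lower by value. Of 30 on that list, 29 were tested and 1 was called lower by Cuffdiff, Loxl2, a collagen cross-linking enzyme (22.0 to 10.9 FPKM, q = 0.0369 in the authors' deposited table). At an unadjusted p under 0.05, 9 were lower and 0 higher, and 26 of 29 lay below 0, with a median log2 fold change of -0.43. The defining fibroblast genes were abundant and not called in the authors' deposited table: Col1a1 had 421 and 281 FPKM, Col1a2 198 and 90.6 (q = 0.0531 by Cuffdiff) and Dcn 47.8 and 26.2 (q = 0.115). Of the list's most abundant genes, Vim had 1601 against 1588 FPKM, S100a4 474 against 445 and Postn 471 against 371 in the authors' deposited table (q = 0.9998 for each by Cuffdiff), of which Vim and S100a4 are also made by macrophages. The list's sum was 4766 against 3911 FPKM. Its part in the fall of Acta2, Thy1, Lrrc15 and Cspg4 was not tested.

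Markers of other cells that a tumor digest could hold were uneven: some were under 1 FPKM in both groups, and others reached the levels of Lrrc15 and Cspg4. For endothelial cells, 10 of 14 genes were tested and 0 called by Cuffdiff, with 0 at an unadjusted p under 0.05. Their sum was 47.8 against 56.1 FPKM, and in the authors' deposited table Pecam1 had 4.04 and 5.22 FPKM, Cdh5 2.55 and 2.28, Eng 13.4 and 18.8 and Ecscr 14.2 and 17.1. Skeletal muscle genes summed to 2.55 and 1.89 FPKM, with 4 of 11 at 0 in both groups. In the authors' deposited table Mylpf, the only one tested, had 1.39 and 1.16 FPKM (q = 0.9998 by Cuffdiff), and Ckm had 0.385 and 0.230. The 8 fat cell genes summed to 20.8 and 25.0 FPKM, with 3 tested and 0 called by Cuffdiff, while 0 lower and 1 higher had an unadjusted p under 0.05. In the authors' deposited table Adipoq had 0.0451 FPKM in MEK1-low and was listed at 0 in MEK1-hi, and Plin1 and Lep were listed at 0 in both. The 3 tested were Lpl (10.6 and 10.8 FPKM), Pparg (4.29 and 8.99) and Fabp4 (5.83 and 5.13) in the authors' deposited table. Bulk RNA does not tell which cells made them. The 9 epithelial genes summed to 21.9 and 15.7 FPKM, with 4 tested and 0 called by Cuffdiff and 0 at an unadjusted p under 0.05. In the authors' deposited table Epcam had 0.690 and 0.923 FPKM and Krt18 17.2 and 11.3. The part of these cells in the values of the 10 markers was not tested.

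**Figure D4:**
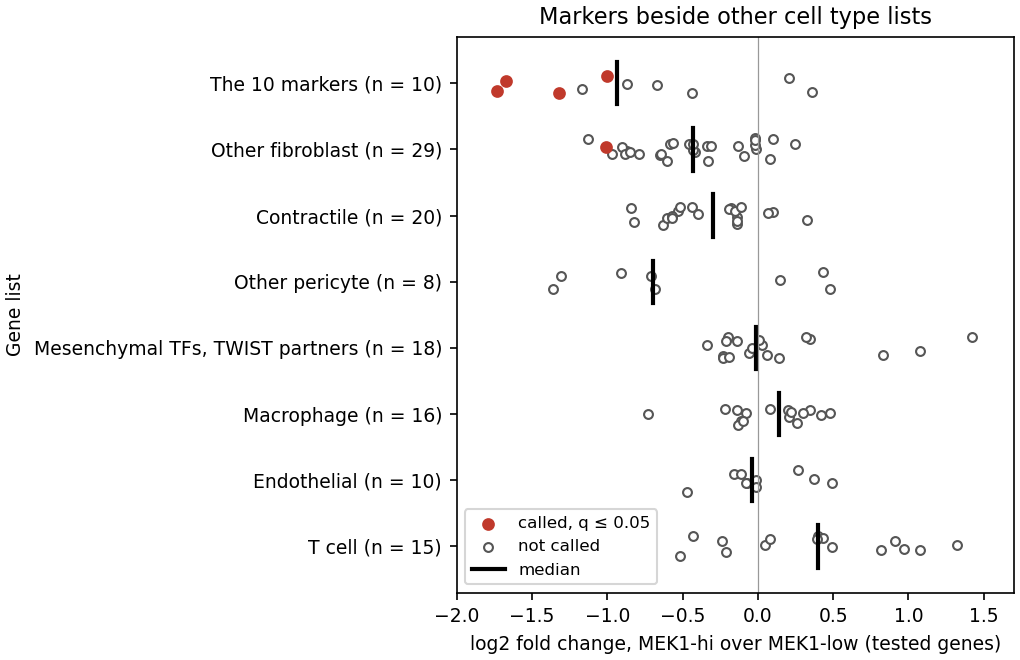
Log2 fold change of MEK1-hi over MEK1-low for the tested genes of 8 lists, 1 point per gene, red where called by Cuffdiff at a q of 0.05, with a bar at each list's median. The 10 markers have the lowest median, -0.94, followed by the other pericyte genes at -0.70 and the other fibroblast genes at -0.43. The macrophage genes lie at 0.14 and the T cell genes at 0.40. The markers were chosen with earlier results known, so their place among the lists is a description.

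The calls depended on how Cuffdiff's p was formed. With p taken from the deposited statistic and a normal distribution, 0 of the 10 markers passed. Over the whole table, 2 lower and 13 higher rows passed that rule, so few that 0 of 10 says little about the markers. The Benjamini-Yekutieli adjustment also left 0 of the 10, but it could pass no row of the table. The smallest Cuffdiff p, 5e-05, is shared by 91 rows and is too large to pass it. That 0 is therefore no result about these markers.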

How the data were processed

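RNA-seq was made from tumor macrophages, 2 MEK1-low and 3 MEK1-hi libraries, grouped by their titles. Per the labels' protocols, TRIzol RNA with an integrity number above 8.0 went into stranded mRNA libraries (750 ng) read as 100-base pairs. The tools named in the submitters' processing notes are FastQC 0.73, TopHat, Cufflinks and Cuffdiff, and the build is mm10. Their order, annotation and strand setting were not stated. Deposited was 1 table by the authors with a pooled FPKM per group. Its test statistic, a score, and its p-value and q-value are as deposited by the authors.

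Log2 fold changes were computed from the deposited FPKM, since 515 cells of the deposited column held error text. Calls were read at a q of 0.05 over 12311 tested rows, with no count model. The smallest p in the table, 5e-05, is shared by 91 rows. The members and the 18 other lists were chosen with earlier results of these data known. Named genes were all members, up to 4 called and 3 most abundant genes of each other list, defining markers, and every gene of the actin, calponin, class III receptor, PDGF and prolyl peptidase lists. Pcsk7 and Rnf214, on the locus of Tagln, were added after values were seen, as were Mrc1, Cd8a, Plin1 and Lep. Adjustment and fold change code was tested on simulated data. Loci are the authors', on mm10, written 1-based. Alternatives varied thresholds, adjustment, filter, source of p, pseudocount and scaling. Software was matplotlib 3.10.9, scipy 1.17.1, pandas 2.3.3 and numpy 2.4.6 under Python 3.11.15.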

Additional observations from a re-analysis of the deposited data

How the results depend on the processing

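The 4 members called lower by Cuffdiff were the same 4 at a q of 0.1, with an FPKM filter of 1 and with a log2 fold change of at least 1. Over the whole table, those settings called 54, 42 and 37 rows lower, in that order. At a q of 0.01 the members called lower were 3, Acta2, Cspg4 and Lrrc15. An FPKM filter of 10 left 2 members, Acta2 and Thy1, because Cspg4 and Lrrc15 are below it in both groups and drop out. That filter left 28 lower rows over the whole table. The Benjamini-Yekutieli adjustment left 0 members, 0 of the 40 lower and 0 of the 123 higher rows. Even the smallest Cuffdiff p, 5e-05, could not pass it, so this outcome does not bear on the members. The normal p of the statistic left 0 members, 2 lower and 13 higher rows. A q of 0.01 left 23 lower and 68 higher rows over the whole table. No member changed sign under any pseudocount or scaling tried, and 37 of 40 member values stayed within 1.5 times. The exceptions were Fap with a pseudocount of 1 (-0.56), and Twist1 (0.08) and Twist2 (0.22) with equal FPKM sums. The members' median was -0.87 without Thy1 and without Tagln, both chosen after seeing the data. Medians near 0 changed sign for 3 other lists: mesenchymal transcription factors (0.01 when centred on the median), fat cells (-0.10 with equal sums) and epithelial cells (0.00 when centred).

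No paired analysis was possible because the table has 1 pooled value per group. For the same reason leaving out each library was not run, and whether 1 library sets any of these values is unknown. No depth per library is known, so low markers such as Fap and Rgs5 have no detection floor.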

Other observations

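Partners and inhibitors of TWIST proteins, and other mesenchymal transcription factors, were read beside Twist1 and Twist2. The list of 22 genes also holds Twistnb (7.79 and 9.71 FPKM in the authors' deposited table), which is of none of these kinds. Of the 22, 18, Twistnb included, were tested and 0 called by Cuffdiff, while 0 lower and 3 higher had an unadjusted p under 0.05. In the authors' deposited table, the 3 were Id3 (59.7 and 106 FPKM, p = 0.00075, q = 0.0531 by Cuffdiff), Id1 (5.78 and 12.2, q = 0.330) and Prrx2 (2.19 and 5.85, q = 0.242), the last pair chosen after their values were seen. ID proteins bind the E-proteins that TWIST needs as partners and keep them from DNA. The E-protein genes Tcf3 (22.8 and 19.8 FPKM), Tcf4 (24.0 and 21.8) and Tcf12 (26.8 and 22.9), also outside the naming rule, had q = 0.9998 by Cuffdiff in the authors' deposited table. Zeb2, abundant in myeloid cells, had 27.9 and 28.6 FPKM and Id2 368 and 406 there. The list's median log2 fold change was -0.01, and 0.01 when centred on the median of all rows.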
